A study of Mus musculus with 2 samples.

Results

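The mouse annotation GENCODE M21 labels 7186 of the 141767 transcripts in the deposited tables as targets of nonsense-mediated decay, and 1395 of them were at 1 TPM or more (TPM is a transcript's abundance scaled to the library) in both cortex libraries and in both deposited quantifications. These 1395 transcripts, 19.4% of those so annotated, belong to 1233 genes. They were chosen by their measured TPM, so their levels and shares are given as a description with no test. The biotype comes from the annotation. No decay was measured, since no sample had decay blocked.

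Nonsense-mediated decay removes messenger RNAs whose stop codon lies too far ahead of the last exon junction. Splicing leaves an exon junction complex near each junction, a ribosome normally clears all of them before it stops, and a complex that remains after the stop recruits the factor Upf1, which the kinase Smg1 phosphorylates and which Smg5 and Smg6 follow. The pathway clears faulty RNAs, and it also sets the level of normal ones. Many genes of splicing factors carry a "poison" exon that brings a stop codon in frame, so that a protein in excess can steer its own RNA into decay. Neurons use the same device for some synaptic proteins and for switches between related splicing factors, of which Ptbp1 and Ptbp2 are the best known pair.

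The material was the left cerebral cortex of 2 male B6CASTF1/J mice, aged 4 days, with 1 total RNA library per animal made from 300 ng of RNA. This strain is an F1 hybrid of a B6 and a Cast parent, and the tables do not tell the alleles apart. There was no treatment and a single group, so no condition is compared. The alignment-based tables held 26897687 and 29511737 expected counts in replicates 1 and 2, and the read-based tables, which were made from the reads directly, held 28166574 and 30425135 estimated counts. The tissue label was checked on marker genes at the gene level. The neuronal genes Tubb3 (1215 and 1280 TPM) and Slc17a7 (133 and 159 TPM) and the astrocyte gene Slc1a3 (103 and 110 TPM) were high, and the liver gene Alb (0.79 and 0.86 TPM) and the pancreatic gene Ins2 (0 and 0) were at or near 0. In bulk tissue, fewer cells of a type and less RNA per cell cannot be told apart. Total RNA holds nuclear as well as cytoplasmic RNA.

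The sequences below show how the stop codon arises in 10 members that gain an exon. Each line gives the last 15 bases of the exon before in lower case and, in capitals, the added exon up to and including its stop codon, which ends the line. All are annotated coding sequence from the GENCODE M21 transcripts (mm10), 5′ to 3′ along the transcript. The members were picked after their values were seen, for being splicing regulators or for a large share of the gene.
Srsf3-201: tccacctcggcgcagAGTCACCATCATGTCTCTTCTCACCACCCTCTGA
Srsf7-203: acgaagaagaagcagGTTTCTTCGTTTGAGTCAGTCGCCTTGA
Tra2a-202: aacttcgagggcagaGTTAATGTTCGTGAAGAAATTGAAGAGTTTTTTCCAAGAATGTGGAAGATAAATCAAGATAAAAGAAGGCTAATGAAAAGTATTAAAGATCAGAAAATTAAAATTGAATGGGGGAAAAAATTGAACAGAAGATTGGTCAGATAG
Tra2b-206: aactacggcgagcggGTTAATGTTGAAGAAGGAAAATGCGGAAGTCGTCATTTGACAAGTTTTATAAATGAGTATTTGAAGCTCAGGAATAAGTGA
Rbmx-205: cgtatgagagttatgGTTGA
Hnrnpll-203: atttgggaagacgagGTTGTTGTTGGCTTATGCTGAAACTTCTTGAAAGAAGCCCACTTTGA
Snrnp70-204: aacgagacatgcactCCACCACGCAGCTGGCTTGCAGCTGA
Selenok-203: attcgtggttttcttGTTCCTGCCCTAG
Atp5f1-203: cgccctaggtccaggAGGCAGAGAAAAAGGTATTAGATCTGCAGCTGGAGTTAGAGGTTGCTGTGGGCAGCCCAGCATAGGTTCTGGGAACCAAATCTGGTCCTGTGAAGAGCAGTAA
Kif21b-204: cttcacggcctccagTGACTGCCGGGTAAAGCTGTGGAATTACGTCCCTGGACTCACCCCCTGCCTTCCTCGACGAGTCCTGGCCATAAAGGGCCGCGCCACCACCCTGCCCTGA

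The added exons lie at chr17:29039454-29039909 on the plus strand (Srsf3, 456 bases, exon 4), chr17:80204622-80205081 on the minus strand (Srsf7, 460 bases, exon 4), chr6:49252803-49253108 on the minus strand (Tra2a, 306 bases, exon 2) and chr16:22258986-22259261 on the minus strand (Tra2b, 276 bases, exon 2). In Srsf3-201 the stop codon ended 34 bases into an exon of 456 bases, and in Srsf7-203 it ended 28 bases into one of 460. The added exons of the paralogues Tra2a and Tra2b, which encode activators of exon inclusion, both follow the first exon and share their first 9 bases, GTTAATGTT. In Rbmx-205, from the X-linked gene of an hnRNP protein, the exon at chrX:57385133-57385221 closed the reading frame within 5 bases. The remaining added exons lie at chr17:80044940-80045022 (Hnrnpll, 83 bases), chr7:45383125-45383184 (Snrnp70, 60 bases), chr14:29970800-29970862 (Selenok, 63 bases), chr3:105957870-105958036 (Atp5f1, 167 bases) and chr1:136173472-136173651 (Kif21b, 180 bases). Those of Hnrnpll, Snrnp70 and Atp5f1 are on the minus strand and those of Selenok and Kif21b on the plus strand.

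A second route to the stop codon is the loss of a coding exon, shown here for 3 regulators chosen the same way. For each gene the first line is the coding transcript with the exon in capitals between 15 bases on each side, and the second is the decay-annotated transcript, in capitals from the new junction to the stop codon.
Ptbp2-201: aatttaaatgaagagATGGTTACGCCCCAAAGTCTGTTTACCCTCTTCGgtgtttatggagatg
Ptbp2-206: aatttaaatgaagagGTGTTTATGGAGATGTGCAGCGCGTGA
Clk1-201: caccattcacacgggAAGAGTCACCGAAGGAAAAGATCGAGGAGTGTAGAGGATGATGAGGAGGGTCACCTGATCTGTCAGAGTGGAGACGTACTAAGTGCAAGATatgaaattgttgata
Clk1-210: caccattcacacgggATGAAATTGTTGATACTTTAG
Clk2-203: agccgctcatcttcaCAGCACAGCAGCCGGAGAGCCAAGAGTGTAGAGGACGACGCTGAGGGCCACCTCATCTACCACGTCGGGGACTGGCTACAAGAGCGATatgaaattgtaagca
Clk2-204: agccgctcatcttcaATGAAATTGTAA

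The skipped exons are 34 bases in Ptbp2 (chr3:119724612-119724645, minus strand), 91 bases in Clk1 (chr1:58420121-58420211, minus strand) and 88 bases in Clk2 (chr3:89169615-89169702, plus strand). None of these lengths is a multiple of 3, so the frame shifts at the new junction. The 34-base exon of Ptbp2, which encodes the neuronal polypyrimidine tract binding protein, is the exon whose skipping is known to be driven by its paralogue Ptbp1. Clk1 and Clk2 encode kinases of SR proteins. Their frames after the skip share the first 10 bases, ATGAAATTGT, before they close in Clk2-204 after 12 bases and in Clk1-210 after 21.

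**Figure D1:**
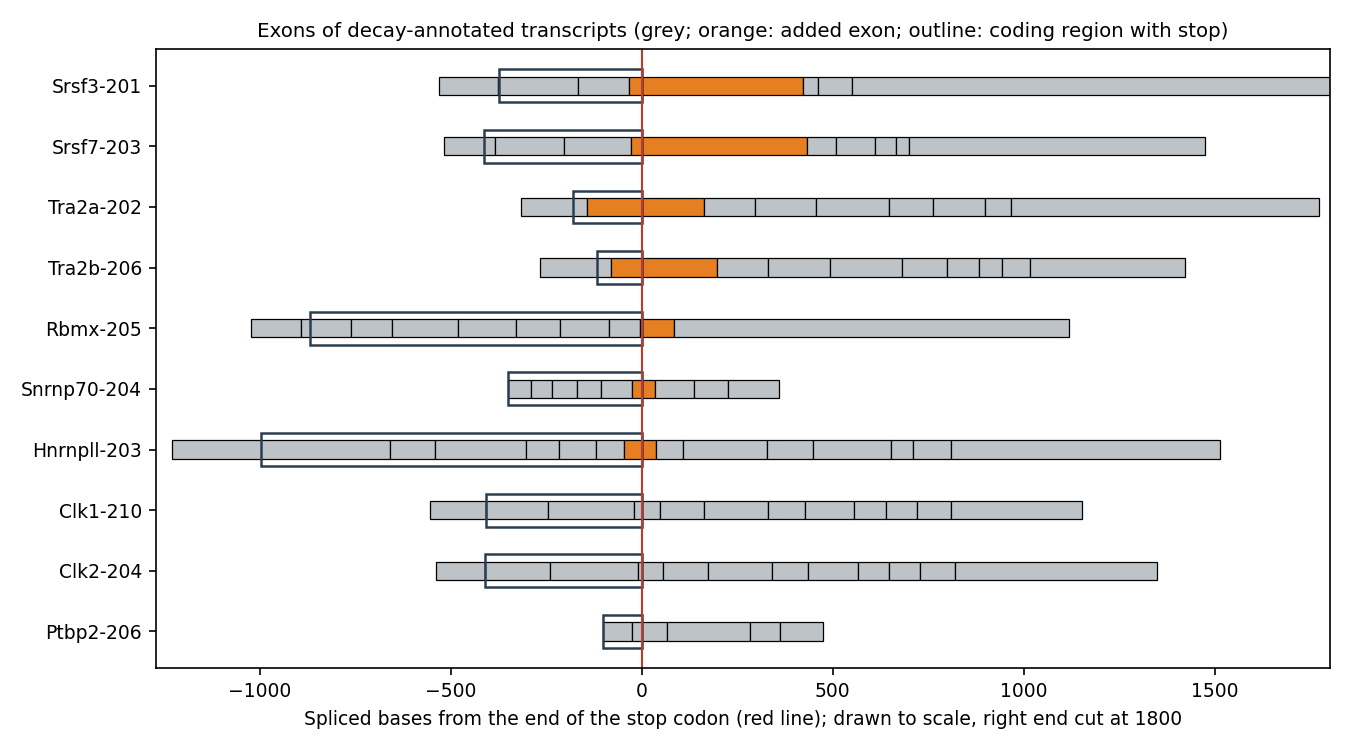
Spliced structure of 10 decay-annotated transcripts, with spliced bases from the end of the stop codon on the x axis (right end at 1800 bases), exons as grey boxes, the added exon of 7 transcripts in orange and the coding region outlined. In Tra2a-202 and Tra2b-206 the stop falls in exon 2, and in all 10 transcripts at least 1 exon boundary lies to the right of the stop.

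The chosen transcripts were mostly minor products of their genes. Their median level was 3.49 and 3.34 TPM in replicates 1 and 2 of the alignment-based tables and 6.03 and 6.04 TPM in the read-based tables. Their median share of the gene, which is the transcript's percentage of the TPM of all transcripts of that gene, was 12.9% and 13.45% in the alignment-based tables and 14.6% and 14.5% in the read-based tables. Together they held 1.14% ± 0.00428 (SD, n = 2) of all TPM in the alignment-based tables and 1.96% ± 0.0208 (SD, n = 2) in the read-based ones.

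Set beside the other classes under the same TPM rule, their shares lay between those of coding and of intron-retaining transcripts. The 19210 protein-coding transcripts had median shares of 40.2% and 40.5% (alignment-based), the 8146 retained-intron transcripts 7.38% and 7.04%, and the 2618 processed transcripts 10.025% and 9.67%. A share of 25% or more in every table was found for 225 of the 1395 members, or 16.1%, against 39% of all 33234 transcripts that met the TPM rule. A member was the highest transcript of its gene in every table in 118 cases, or 8.46%, against 31.5% of all 33234. At the other end, 308 members (22.1%) were at 10% of the gene or less in every table.

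**Figure D2:**
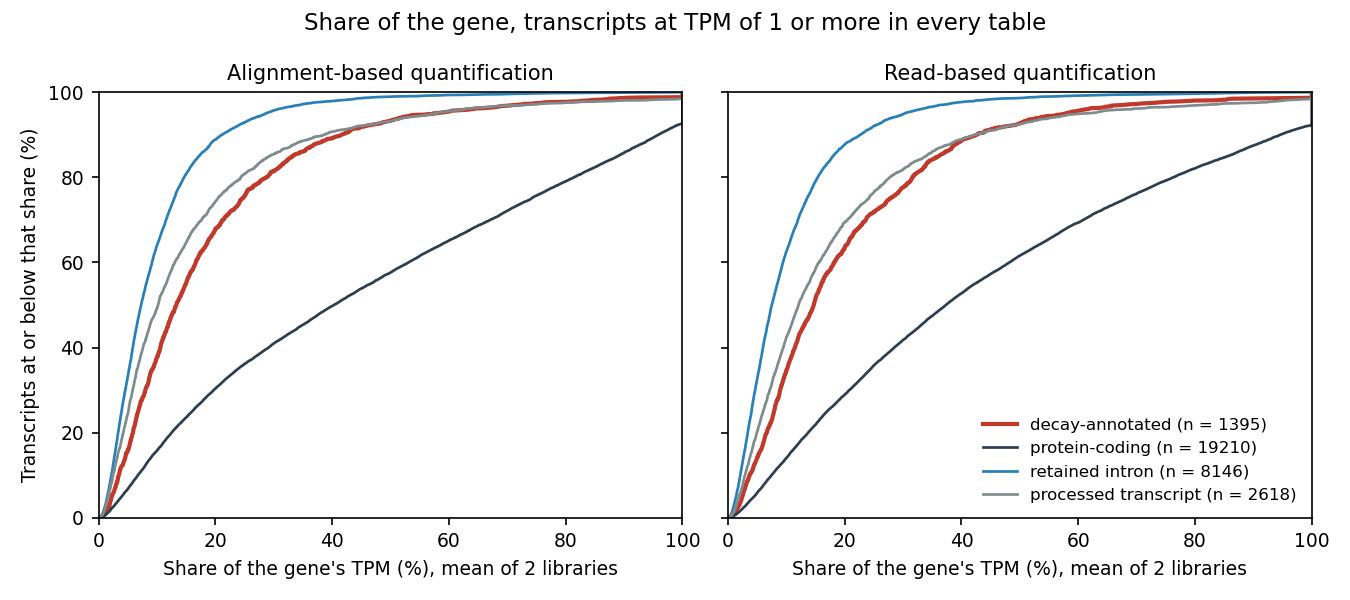
Cumulative percentage of transcripts (y axis) at or below a given share of the gene's TPM (x axis, mean of 2 libraries) for 4 annotated classes, in the alignment-based (left) and read-based (right) tables. The decay-annotated curve lies close to that of processed transcripts, to the right of the retained-intron curve and to the left of the protein-coding one.

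Most annotated decay transcripts were not kept. Of the 5791 left out, 1393 were listed at 0 in all 4 tables, 296 met the TPM rule in the alignment-based tables alone and 1185 met it in the read-based tables alone. The members nearest to the threshold were Mri1-201, Kctd7-203 and Dock6-204, each with its lowest value at 1 TPM. The nearest ones outside were Kansl3-207, lowest value 0.99999 TPM, and Serpinf1-208 and Gm45140-202, both with a lowest value of 0.99 TPM. Serpinf1-208 missed the rule by 1 table, since it was at 0.99 and 3.35 TPM in the alignment-based tables and at 3.79 and 6.08 TPM in the read-based ones.

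The position of the stop codon was then read from the annotation. Of the 1393 members with an annotated stop, 1387 (99.6%) had it more than 50 spliced bases before the last junction, with a median of 442 bases. Among protein-coding transcripts that met the TPM rule this held for 69 of 17554, or 0.393%, with a median of -142 bases, which places the stop after the last junction. This difference is how the class is annotated and is not a finding. The stop codon was TGA in 54.4% of members against 49.9% of the coding transcripts, TAA in 24.3% against 26.7%, and TAG in 21.2% against 23.4%. The annotated coding length of members was a median of 25.8% of that of the highest coding transcript of their gene. This median includes 328 members (23.5%) whose coding region is annotated as incomplete.

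By where the stop codon lies, the largest class had the stop in sequence that a coding transcript also contains, with 734 members (52.6%). Of these, 354 skipped no exon of the highest coding transcript between their own transcript start and stop codon. Another 311 skipped exactly 1, and 69 skipped 2 or more. An exon was counted as skipped whether or not it is coding. In 290 of the 311 the length of the skipped exon was not a multiple of 3. A stop in an added internal exon, the layout of a poison exon, was found for 287 members (20.6%) of 269 genes, with a median exon length of 126 bases and quartiles of 86 and 177. Another 242 members (17.3%) had the stop in the part of an exon that no coding transcript contains, and 99 (7.10%) used the same stop as a coding transcript with a junction behind it. The last 33 were 4 with a stop in an added first or last exon and 29 whose gene has no coding transcript with an annotated stop to compare or which have no annotated stop themselves.

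The median share was then taken by class. In the alignment-based tables it was 14.7% for shared sequence, 10.8% for added internal exons, 11.1% for extended exons and 14.96% for the same stop. In the read-based tables the medians were 15.4%, 11.9%, 12.6% and 15.5% in the same order. A share of 25% or more in every table was held by 16.9%, 9.76%, 11.6% and 20.2% of members in that order. The 29 members left unclassified had a median share of 100% in both quantifications. The 287 members with an added exon hold 277 distinct exons, since some members share one, and 96 of the 277 (34.7%) have a length that is a multiple of 3. For 61 of the 287 members the exon also occurs with both edges in another annotated transcript of the gene.

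**Figure D3:**
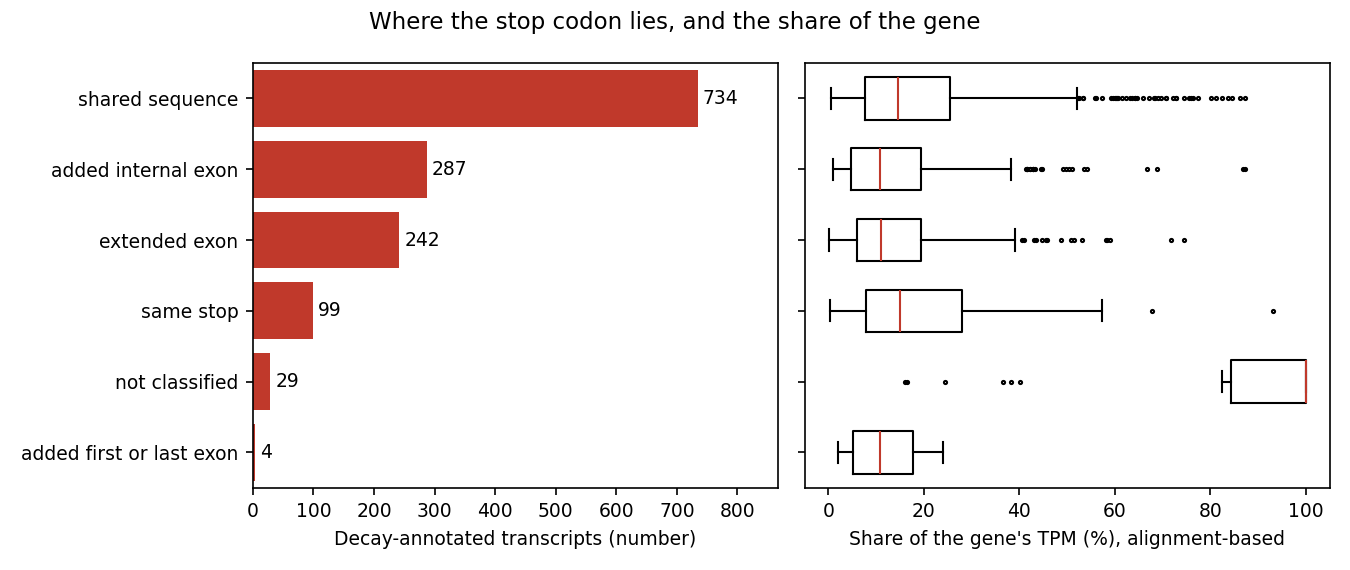
Number of decay-annotated transcripts by where the stop codon lies (left, bars) and their share of the gene's TPM in the alignment-based tables (right, boxes with median and quartiles, whiskers to 1.5 times the interquartile range, points beyond). Shared sequence leads with 734 transcripts, and the medians of the 4 largest classes lie between 10.8% and 14.96%.

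Gene groups were described by how many of their detected genes with an annotated decay transcript had a member. Over all detected genes (gene TPM of 1 or more in both libraries) this was 1233 of 3705, or 33.3%. A transcript of a high gene reaches 1 TPM with a smaller share, and the part of this in the percentages was not tested. The percentage rose with the level of the gene and was nearly flat from 50 TPM up. It was 14.3% of 1006 genes at 1 to 10 TPM, 36.6% of 1939 genes at 10 to 50 TPM, 49.9% of 613 genes at 50 to 150 TPM and 50.3% of 147 genes at 150 TPM or more. Each list count below is therefore given with the median gene level of the list.

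**Figure D4:**
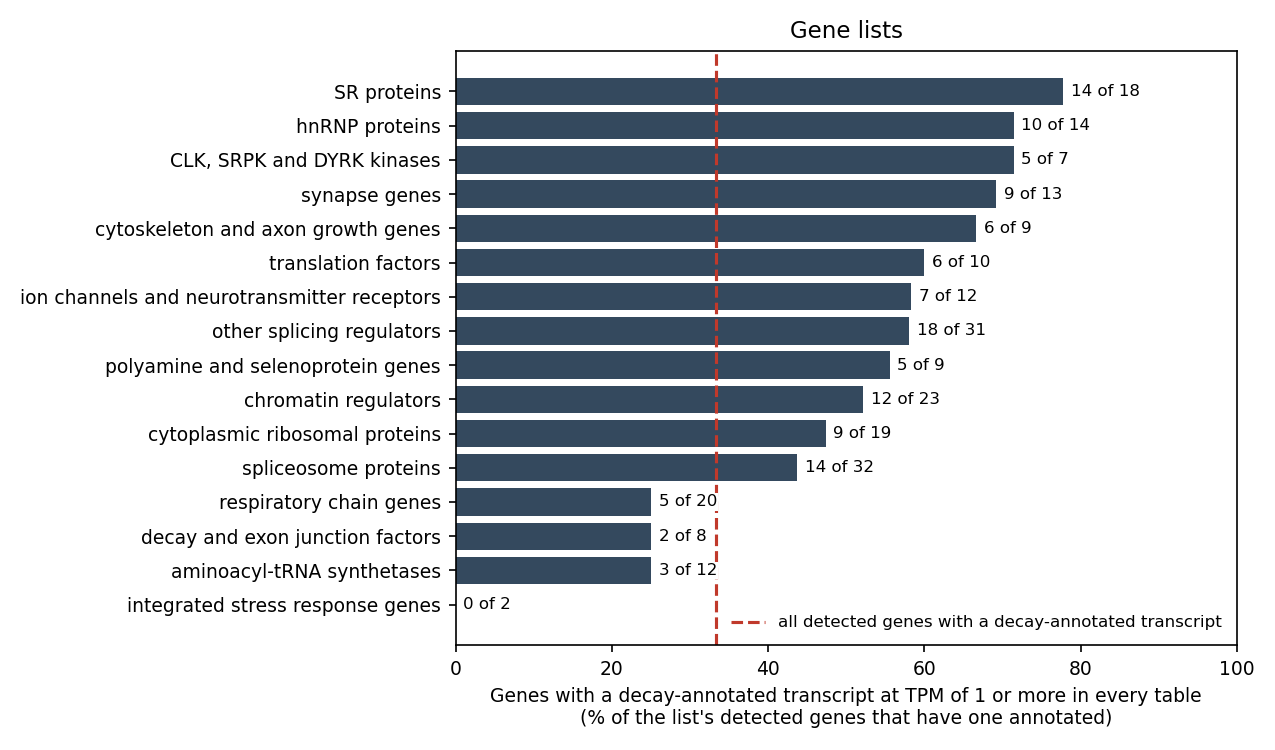
Percentage of the detected genes with an annotated decay transcript that had one at 1 TPM or more in every table, for 16 gene lists, with counts beside the bars and the value over all detected genes (33.3%) as a dashed line. SR proteins lead with 14 of 18, and 4 lists lie below the line.

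Among the SR proteins, which bind exons and recruit the splicing machinery, 14 of 18 genes had a member (77.8%, median gene level 79.5 TPM). Their 16 members had median shares of 10.3% and 14.2% in the alignment-based and read-based tables. Tra2b-206 was the highest, at 23.4 and 34.2 TPM in replicates 1 and 2 (alignment-based) and 40.7 and 53.7 TPM (read-based). It made up 29.5% and 41.4% of the gene in the alignment-based tables and 36.1% and 46.0% in the read-based ones, with replicate 2 above replicate 1 in both. Its most abundant coding transcript, Tra2b-204, held 34.5% and 32.5% (alignment-based).

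Tra2a-202, its paralogue's transcript with the matching added exon, was at 9.89 and 6.27 TPM (alignment-based) and 27.6 and 19.6 TPM (read-based). Its shares were 21.03% and 20.5% in the alignment-based tables but 41.4% and 46.6% in the read-based ones, so the quantifications lay further apart than the libraries. Srsf3-201, from the gene of the smallest SR protein, was at 18.9 and 17.9 TPM with shares of 16.6% and 14.4% (alignment-based) and at 38.2 and 41.6 TPM with shares of 21.9% and 24.98% (read-based). None of the 31-base words of Srsf3-201 was unique to it among the annotated transcripts. Srsf6-201, which shares its stop with a coding transcript and has 4 junctions behind it, held 27.2% and 23.1% (alignment-based) and 33.0% and 27.7% (read-based).

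Srsf7-203 was at 1.94 and 2.00 TPM, 2.16% and 2.38% of the gene, in the alignment-based tables and at 3.61 and 2.79 TPM in the read-based ones. Son-212, from the gene of a large nuclear-speckle protein, held 7.84%, 7.81%, 8.02% and 7.99% in the 4 tables. Srsf5, Srsf11, Srrm1 and Srrm2 had an annotated decay transcript and were detected, but none of theirs met the TPM rule.

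In the hnRNP list, of RNA-binding proteins that often oppose SR proteins, 10 of 14 genes had a member (71.4%, median gene level 169.9 TPM). Hnrnpu-206 was the highest, at 133 and 117 TPM (alignment-based) and 155 and 142 TPM (read-based). It held 45.7% and 46.3% of the gene in the alignment-based tables and 38.5% and 41.2% in the read-based ones, and it was the highest transcript of Hnrnpu in all 4. Its coding region of 2379 bases compares with 2400 bases in the coding transcript Hnrnpu-201, and its stop lies 183 bases ahead of the last junction. It also carries the annotation's readthrough tag.

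Rbmx-205, which gains the 89-base exon shown above, was at 30.9 and 28.2 TPM (alignment-based) and 38.5 and 36.3 TPM (read-based), with shares between 38.7% and 45.2%. Hnrnpa1-203 and Hnrnpa1-204 share their stop with a coding transcript and have junctions behind it. Hnrnpa1-203 was at 38.7 and 63.2 TPM (alignment-based) and 90.9 and 101 TPM (read-based), or 10.9%, 17.8%, 15.9% and 18.1% of the gene. Hnrnpd-208, of the AU-rich element binding protein AUF1, differed between quantifications, with 21.6% and 19.3% of the gene in the alignment-based tables and 8.36% and 7.52% in the read-based ones. It has no 31-base word of its own.

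**Figure D5:**
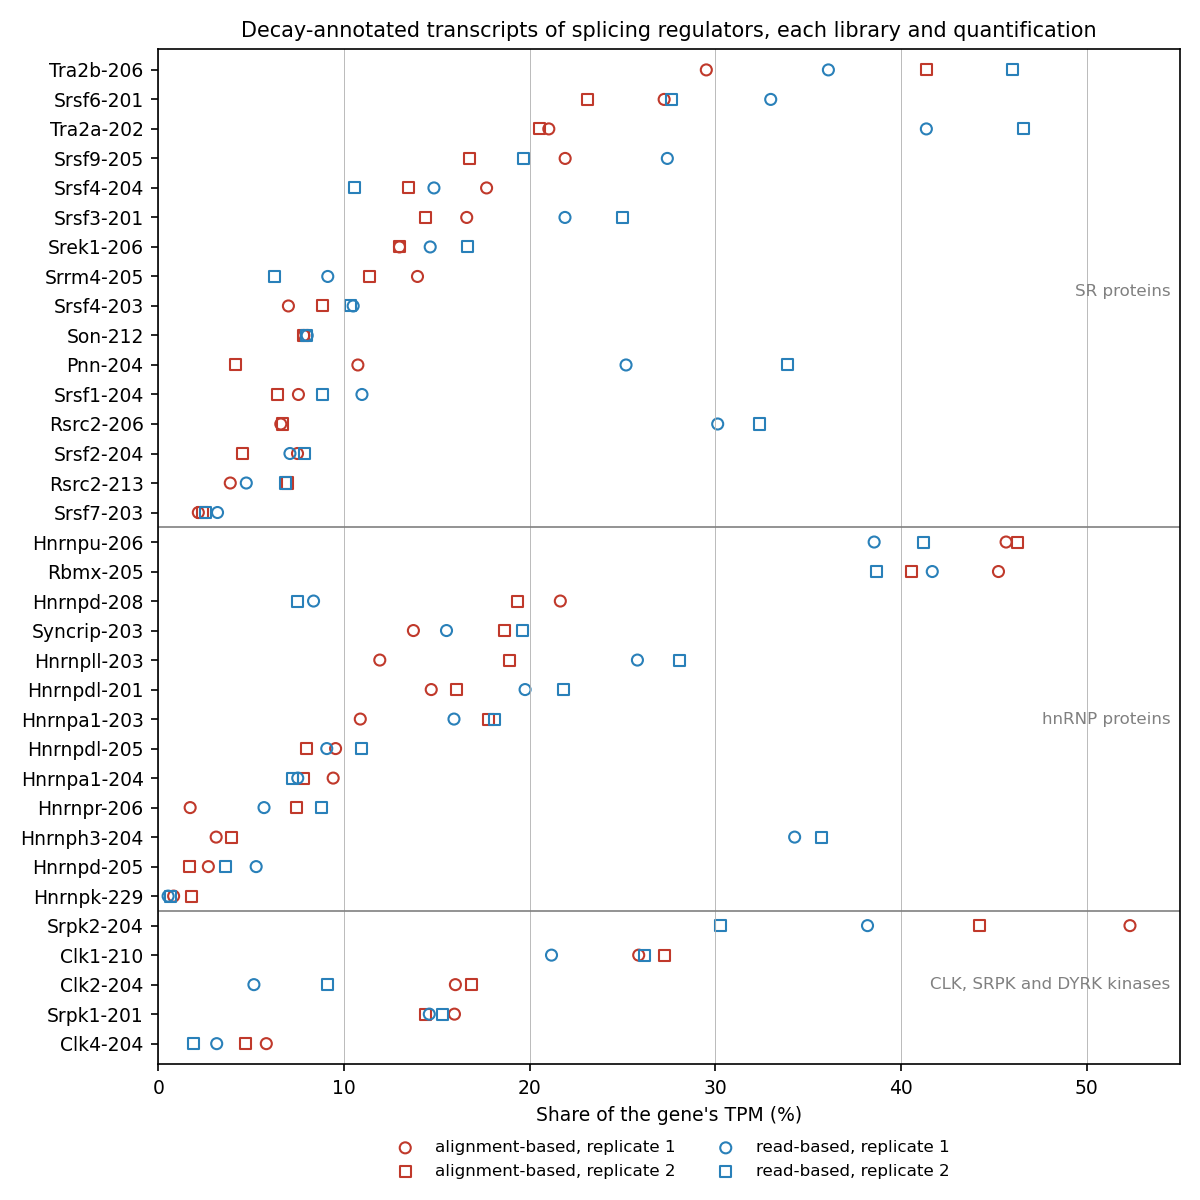
Share of the gene's TPM (x axis) for every decay-annotated member of the SR protein, hnRNP and kinase lists, with circles for replicate 1 and squares for replicate 2, red for the alignment-based and blue for the read-based tables. Hnrnpu-206 and Rbmx-205 lie above 38% in all 4 tables, and Tra2a-202, Pnn-204, Rsrc2-206 and Hnrnph3-204 show the widest gaps between red and blue.

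Of the other splicing regulators, 18 of 31 genes had a member (58.1%, median gene level 81.4 TPM), with median shares of 7.32% and 8.88%. Celf2-228 was at 43.3 and 44.5 TPM (alignment-based) and 53.8 and 57.5 TPM (read-based), 8.77% to 13.7% of the gene. Tardbp-228, from the gene of TDP-43, which is known to control its own RNA level, was at 34.2 and 24.6 TPM (alignment-based) and 51.4 and 40.7 TPM (read-based), 18.3% to 23.8% of the gene. Khdrbs3-204, of a KH-domain splicing factor of neurons, keeps the stop of a coding transcript and held 12.2% and 18.8% (alignment-based) and 14.4% and 22.0% (read-based).

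Ptbp2-206, which lacks the 34-base exon, was at 25.2 and 23.7 TPM or 17.6% and 16.4% of the gene in the alignment-based tables, and at 15.1 and 14.0 TPM or 6.99% and 5.64% in the read-based ones. The coding transcript Ptbp2-201 was at 63.8 and 60.0 TPM and at 33.5 and 31.2 TPM in the same tables. The libraries lay closer together than the quantifications. The coding region of Ptbp2-206 is annotated as incomplete, and the transcript has no 31-base word of its own. The part of this in the difference was not tested.

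In the spliceosome list 14 of 32 genes had a member (43.8%, median gene level 39.7 TPM). Ddx5-208, of an RNA helicase, was at 67.8 and 69.2 TPM (alignment-based) and 109 and 113 TPM (read-based), 13.6% to 17.3% of the gene. Prpf4b-208, of a kinase of the spliceosome, held 46.5% and 46.7% (alignment-based) and 35.7% and 36.4% (read-based) and was the highest transcript of its gene in every table. It has the full coding region of 3021 bases and 1 junction behind a stop shared with a coding transcript. Prpf4b-208 has no 31-base word of its own. Sf1-201, of the branch-point binding protein, held 13.8% and 14.5% (alignment-based) and 17.5% and 17.5% (read-based).

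Of the kinases that phosphorylate SR proteins and their relatives, 5 of 7 genes had a member (71.4%, median gene level 47.0 TPM), and all 5 members have their stop in sequence shared with a coding transcript. Srpk2-204 was at 37.0 and 34.7 TPM (alignment-based) and 55.6 and 54.8 TPM (read-based), with shares of 52.3%, 44.2%, 38.2% and 30.3%. Clk1-210, shown above without its 91-base exon, was at 13.4 and 14.05 TPM (alignment-based) and 14.5 and 16.5 TPM (read-based). Its shares of 25.9%, 27.3%, 21.2% and 26.2% were above those of the coding transcript Clk1-201, which held 7.09%, 3.44%, 8.04% and 4.84%. Clk1-210 has no 31-base word of its own, so its share depends on how reads were divided among overlapping transcripts. The part of this in the difference from Clk1-201 was not tested. Clk2-204, the paralogous event, held 16.0% and 16.9% (alignment-based) and 5.15% and 9.10% (read-based), below the coding Clk2-203 in each table. Clk3 and Hipk1 had an annotated decay transcript below the rule.

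Taking the 5 splicing lists together, their 72 members had the stop in shared sequence in 29 cases (40.3%) and in an added internal exon in 21 (29.2%). The stop was the same as that of any coding transcript of the gene in 14 (19.4%). It was in an extended exon in 7 and in an added first or last exon in 1. Over all members those percentages were 52.6%, 20.6% and 7.10% for the first 3 classes.

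Of the factors of the decay pathway itself, all 35 were detected, 8 have an annotated decay transcript, and 2 of the 8 had a member (25%, median gene level 20.6 TPM), against 36.6% of all genes at 10 to 50 TPM. The difference was not tested. Gspt2-202, of a translation release factor, was at 3.08 and 2.17 TPM (alignment-based) and 4.61 and 3.17 TPM (read-based), 16.9% to 23.0% of the gene. Smg5-202 was at 1.90 and 2.34 TPM (alignment-based) and 3.56 and 3.69 TPM (read-based), 4.97% to 6.24% of the gene. Smg1 and Smg6 have an annotated decay transcript that did not meet the rule. In the list of the integrated stress response, which includes RNAs with upstream reading frames, 2 genes have an annotated decay transcript and neither had a member.

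Among ribosomal protein genes some members were very high. Of 19 genes with an annotated decay transcript, 9 had a member (47.4%, median gene level 294.6 TPM). Rpsa-206 was at 411 and 412 TPM, 81.8% and 80.7% of the gene, in the alignment-based tables and at 222 and 207 TPM, 33.5% and 30.3%, in the read-based ones. Its coding partner Rpsa-204 moved the other way, at 41.2 and 49.6 TPM in the first and 417 and 449 TPM in the second. Rpl12-201 held 47.2% and 56.9% (alignment-based) and 73.1% and 73.6% (read-based). Rpl13a-216 held 4.36% and 3.00% in the alignment-based tables and 0.566% and 0.984% in the read-based ones. These values are uncertain. Genes of this family have many processed pseudogenes, with which reads can be shared, and the part of this in the values was not tested.

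Among translation factors 6 of 10 genes had a member (60.0%, median gene level 126.5 TPM). Eif4a2-210, of an RNA helicase of translation initiation, was at 116 and 117 TPM in the alignment-based tables but at 16.8 and 32.9 TPM in the read-based ones, where it held 3.04% and 5.38% of the gene instead of 34.5% and 36.55%. It has no 31-base word of its own. Eef1b2-205 held 20.96% and 21.4% (alignment-based) and 9.36% and 13.2% (read-based). Of the aminoacyl-tRNA synthetases 3 of 12 genes had a member (25%, median gene level 44.9 TPM). Cars-211 was at 9.05 and 7.79 TPM (alignment-based) and 9.74 and 11.7 TPM (read-based). Farsb-204 was lower than it in the first, at 3.05 and 1.64 TPM, and higher in the second, at 28.2 and 26.9 TPM.

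In the list of polyamine and selenoprotein genes 5 of 9 had a member (55.6%, median gene level 25.1 TPM). Selenok-203, of a selenoprotein of the endoplasmic reticulum, gains the 63-base exon shown above and was at 25.1 and 24.3 TPM (alignment-based) and 76.3 and 70.6 TPM (read-based). It held 40.7% and 42.3% of the gene in the first and 70.0% and 70.3% in the second. Azin1-205 and Odc1-205, of the antizyme inhibitor and of ornithine decarboxylase, held 3.90% to 11.2% and 4.61% to 7.86% of their genes. In Selenoo-202, at 3.30 to 6.03 TPM and 26.8% to 34.7% of the gene, the stop lies in shared sequence.

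Of 13 synaptic genes with an annotated decay transcript 9 had a member (69.2%, median gene level 97.4 TPM). Their 12 members had low median shares, 3.98% (alignment-based) and 7.05% (read-based). Low medians were not particular to this list. They were 3.11% and 2.61% for cytoskeletal and axon growth genes and 3.68% and 1.77% for ribosomal protein genes. Nrxn3-208, of a presynaptic adhesion protein, gains an exon of 706 bases and was at 7.36 and 8.88 TPM (alignment-based) and 11.2 and 12.0 TPM (read-based), 8.88% to 11.7% of the gene.

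Of the ion channel and receptor genes 7 of 12 had a member (58.3%, median gene level 49.8 TPM). Gabra2-204, of a GABA-A receptor subunit, held the largest share of this list at 32.9% and 40.7% (alignment-based) and 39.7% and 38.7% (read-based), with 8.10 and 9.27 TPM and 14.4 and 14.3 TPM. Cacna1d-208, of an L-type calcium channel, held 21.5% and 20.4% (alignment-based) and 28.9% and 31.5% (read-based). Gria2-203, of an AMPA receptor subunit, gains a 41-base exon and was at 4.14 and 3.85 TPM (alignment-based) and 10.3 and 12.1 TPM (read-based), no more than 4.88% of the gene in any table. Grik5-202, of a kainate receptor subunit, held 2.77% to 6.34%.

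Cytoskeletal and axon growth genes had a member in 6 of 9 cases (66.7%, median gene level 266.0 TPM), with Clasp1-226 at 22.2 and 22.1 TPM (alignment-based) and 9.03 and 11.9 TPM (read-based) and Kif1a-205 at no more than 2.73% of its gene. Chromatin regulators had one in 12 of 23 cases (52.2%, median gene level 46.7 TPM). Kmt2e-207, of a chromatin protein with a PHD finger and a SET domain, was at 15.6 and 19.8 TPM (alignment-based) and 20.8 and 23.1 TPM (read-based), 16.2% to 25.2% of the gene. Brd2-207 held 6.02% to 9.52% and Hdac5-205 12.1% to 16.0% of their genes.

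Respiratory chain genes had a member in 5 of 20 cases (25%, median gene level 110.4 TPM). Atp5f1-203, of a subunit of the mitochondrial ATP synthase, gains the 167-base exon shown above and was at 54.6 and 57.1 TPM (alignment-based) and 79.9 and 85.9 TPM (read-based). It held 42.8%, 41.6%, 40.7% and 40.2% of the gene, below the coding Atp5f1-201 in each table. Ndufs4, of a complex I subunit, had 2 members. Ndufs4-204 held 54.4% and 30.1% in the alignment-based tables and 49.2% and 72.1% in the read-based ones, and Ndufs4-202 held 22.4% and 43.1% and then 35.2% and 13.4%. Which library was higher depended on the quantification for both.

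Ranked by the alignment-based tables, the highest member was Ppia-201, of cyclophilin A, at 949 and 965 TPM (alignment-based) and 1088 and 1076 TPM (read-based), with shares of 86.5% and 85.8% in the first and 47.3% and 45.1% in the second. Its most abundant coding transcript, Ppia-202, was at 6.13 and 5.04 TPM in the alignment-based tables and at 546 and 629 TPM in the read-based ones. Only 29 of the 31-base words in Ppia-201 were its own, and the gene has many processed pseudogenes. The part of either in the difference was not tested. The read-based tables order the members differently, and Rpl27a-205, named here after its values were seen, was at 16.6 and 15.9 TPM in the alignment-based tables and at 488 and 506 TPM in the read-based ones. Atp2a2-203, of the calcium pump of the endoplasmic reticulum, was at 111 and 106 TPM (alignment-based) and 111 and 110 TPM (read-based). It has the full coding region of 3132 bases, a stop shared with a coding transcript and 1 junction behind it.

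The shares of others among the 15 highest were as follows. Ppp1cb-205, of a phosphatase catalytic subunit, held 45.8% and 48.1% (alignment-based) and 40.9% and 43.4% (read-based). Arf4-203, of a Golgi GTPase, held 72.9% and 72.8% in the alignment-based tables and 32.7% and 30.4% in the read-based ones. Tspan5-207, of a tetraspanin, held 71.4% and 74.1% (alignment-based) and 59.8% and 62.6% (read-based), with a coding region of 579 bases against 591 in the coding transcript and a stop 95 bases before the last junction. Ptov1-205 held 36.0% to 41.6%, Pfdn5-201, of a prefoldin subunit, 36.9% to 60.2%, and Cct7-202, of a chaperonin subunit, 35.4% to 51.9%.

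The neuronal kinesin transcript Kif21b-204 combined a high level with a large share. It was at 110 and 110 TPM (alignment-based) and 156 and 154 TPM (read-based), and held 67.6%, 70.0%, 69.6% and 67.4% of the gene. The coding transcript Kif21b-201 held 25.8%, 23.2%, 20.2% and 20.1%. In Kif21b-204 the stop ends 80 bases before the last and only junction behind it, and 4917 coding bases precede it, more than the 4872 of Kif21b-201. It has 205 words of 31 bases of its own.

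Some large shares are set by the annotation. All 18 members at 100% in every table are the single annotated transcript of their gene, so the share is fixed by the annotation, and all 18 carry the readthrough tag of transcripts that join neighbouring genes. They were at a median of 2.99 TPM (alignment-based), with Sssca1-206 at 16.4 and 16.7 TPM (alignment-based) and 32.4 and 34.7 TPM (read-based). Readthrough transcripts overlap the genes they join, so their levels are uncertain, although the median of the 18 was 6.67% own words (31-base words found in no other annotated transcript), against 4.08% over all members.

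In genes with more than 1 transcript, 207 members held 25% or more in every table and 100 were the highest transcript in every table. Some of these still carry the readthrough tag. It is carried by 33 members in all, of which 27 held 25% or more and 26 were the highest in every table. Only 18 of the 33 are the single transcript of their gene. The largest shares in genes with more than 1 transcript, picked after their values were seen, were those of Mnat1-203 and Mmaa-202. Mnat1-203, of an assembly factor of the CDK-activating kinase, was at 6.84 and 8.23 TPM (alignment-based) and 9.33 and 11.4 TPM (read-based) and held 85.2% to 87.8% of the gene. It lacks a 74-base exon. Mmaa-202, of a mitochondrial protein of cobalamin metabolism, was at 9.99 and 7.98 TPM (alignment-based) and 15.4 and 12.5 TPM (read-based) and held 84.3% to 86.5%.

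Syt16-201, of a synaptotagmin, was at 45.8 and 45.0 TPM (alignment-based) and 61.7 and 62.6 TPM (read-based) and held 83.0% to 89.1% of the gene. The coding transcript Syt16-203 held 7.05% and 8.20% (alignment-based) and 7.54% and 8.13% (read-based). The added exon of Syt16-201 is 821 bases long and 819 words of 31 bases were its own, against 29 in Ppia-201. Cbx1-204, of a heterochromatin protein, held 67.1% to 69.8% with a stop shared with a coding transcript, 1 junction behind it and 1408 own words. Dirc2-202, of a lysosomal membrane protein, was at 30.5 and 30.4 TPM (alignment-based) and 43.4 and 43.8 TPM (read-based) and held 66.1% to 69.1%.

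Most genes had a single member. There were 1098 genes with 1, 111 with 2, 21 with 3 and 3 with 4. The 3 with 4 members were Agtpbp1, Man2c1 and Ttc3, whose summed shares in the alignment-based tables were 24.25% and 26.8%, 26.7% and 26.2%, and 13.2% and 13%. Of the 24 genes with 3 or more, Zdhhc3 had the largest lowest sum, at 74.2% and 70.9% (alignment-based) and 62.3% and 61.6% (read-based), followed by Mrpl3 at 58.9% and 62.9% and at 58.0% and 63.5%. These 5 genes were singled out after their values were seen. A protein-coding transcript that met the rule was present in 1135 of the 1233 genes (92.1%), and a retained-intron transcript that met it in 749 (60.7%). Over all genes, of which 15565 were detected, 11807 had such a coding transcript and 4481 such a retained-intron transcript. The same percentages over all genes with an annotated decay transcript were not computed.

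Between the libraries, which come from 2 animals of the same group, 27 members (1.94%) were at least 2-fold apart in the same direction in both quantifications. Replicate 2 was higher for 13 (0.932%) and lower for 14 (1.00%), against 0.605% and 1.07% of all 33234 transcripts that met the TPM rule. The SD of the log2 ratio of replicate 2 over replicate 1 was 0.55 over members and 0.47 over all (alignment-based), and 0.58 and 0.52 (read-based). With 1 library per animal and no further samples, these ratios have no test.

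The 5 largest in favour of replicate 2 were Ip6k1-202, Rpl3-205, Dlx1-204, Sf3b1-208 and Peg3-202. Ip6k1-202, of an inositol phosphate kinase, was at 1.91 and 9.95 TPM (alignment-based) and at 4.86 and 20.6 TPM (read-based), while the coding Ip6k1-201 was at 61.0 and 65.8 TPM (alignment-based). Dlx1-204, of a homeobox factor of cortical interneurons, was at 2.31 and 6.77 TPM (alignment-based) and at 1.62 and 8.90 TPM (read-based), and its coding Dlx1-201 was also higher in replicate 2, at 11.6 and 19.4 TPM (alignment-based). The interneuron marker Gad1 was at 53.9 and 83.4 TPM and the excitatory neuron marker Neurod6 at 124 and 97.85 TPM in the same libraries, and the part of this in the result was not tested. Peg3-202, of an imprinted gene, was at 1.03 and 5.73 TPM (alignment-based) and at 3.75 and 9.28 TPM (read-based). Another member of that gene, Peg3-203, went the other way, at 3.19 and 1.33 TPM (alignment-based) and 5.83 and 2.52 TPM (read-based). Both members contain the same 63-base added exon. Transcripts with that exon held 8.96% and 13.0% of the gene (alignment-based) and 14.3% and 15.4% (read-based).

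The 5 largest in favour of replicate 1 were Unc45a-208, Desi1-202, Plekha5-209, Eef1b2-203 and Crebzf-205. Unc45a-208, of a myosin chaperone, was at 5.66 and 1.11 TPM (alignment-based) and at 9.74 and 2.76 TPM (read-based), and the coding Unc45a-201 was at 13.2 and 21.05 TPM (alignment-based). Desi1-202 was at 10.5 and 3.43 TPM (alignment-based) and at 27.1 and 8.76 TPM (read-based). All 10 of these members have at most 51 words of 31 bases of their own, and Crebzf-205 has none. Few own words were common, since 595 of all 1395 members had fewer than 31. The percentage of all members with at most 51 was not counted. The part of few own words in the ratios was not tested.

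The 2 quantifications give a view of how firmly a share is known, but only for transcripts that met the TPM rule in both. Left out are 296 decay transcripts that met it in the alignment-based tables alone and 1185 in the read-based ones alone. Large differences can therefore be missing from the values below. Averaged over the libraries, the shares differed by a median of 3.74 percentage points between quantifications. Between single libraries the median difference was 2.25 points (alignment-based) and 2.34 points (read-based). For 49 members (3.51%) the quantifications were more than 25 points apart. The 5 widest were Rnasek-202, Lgals1-202, Snapin-204, Mrpl17-203 and Ppt1-203. Rnasek-202 was at 1.79 and 2.34 TPM, 1.97% and 2.73% of its gene, in the alignment-based tables and at 96.4 and 91.4 TPM, 100% in both libraries, in the read-based ones, where the coding Rnasek-201 was listed at 0. Lgals1-202 held 19.6% and 13.5% in the first and 91.2% and 90.7% in the second.

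Many members had little sequence that no other annotated transcript holds. Own words were counted for members alone, so it is not known here whether other classes differ. Of the 1395 members, 138 had no 31-base word of their own and another 457 had 1 to 30, and the median was 4.08% of a member's words. The quantifications differed by a median of 5.34 points for members with no own word, 4.48 points for those with 1 to 30 and 3.16 points for the 800 with 31 or more. The median share was 15.8%, 14.6% and 12.3% (alignment-based) and 15.9%, 14.5% and 14.5% (read-based) in the same order. Of the 225 members at 25% or more in every table, 102 had fewer than 31 own words. In the alignment-based tables the lower bound of the deposited TPM interval was at 1 or more in both libraries for 828 members (59.4%) and under 0.5 in at least 1 library for 294 (21.1%). The level of that interval is not given in the sources used here.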

How the data were processed

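Left cerebral cortex of 2 mice was profiled by total RNA-seq, 1 library per animal. Per the deposited notes, the mm10 assembly and GENCODE M21 were used. The authors made 1 pair of tables from a transcriptome alignment (alignment-based) and 1 pair from the reads directly (read-based), and no source used here names the quantifiers. Per the file headers, the deposited tables hold expected or estimated counts, TPM (length-scaled and set to the same sum in each library) and, in the alignment-based tables, IsoPct, the percent of the gene's TPM. IsoPct was checked against TPM and differed by at most 0.133 points in genes of 10 TPM or more. For the read-based tables the share was computed from TPM in the same way. Both methods divide reads among overlapping transcripts, so a share depends on that division. Library totals were 26897687 and 29511737 expected counts and 28166574 and 30425135 estimated counts.

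Members were transcripts of biotype nonsense_mediated_decay at 1 TPM or more in all 4 tables. No filter on counts or pseudocount was used, and ratios are of TPM. Exons, coding regions and stop codons came from the GENCODE M21 annotation, and own words are 31-base words found in no other annotated transcript. Named transcripts were the 15 highest by mean alignment-based TPM, the 15 largest by lowest share, up to 4 per gene list by mean alignment-based TPM, 5 per direction by ratio, the 5 widest between quantifications and 3 on each side of the threshold, except where stated. The 16 gene lists hold 757 genes, of which Rbm23 and Ddx39a were not analysed here. A few named items are not reported here. The members and lists were chosen with earlier results of these data known. Scripts used Python 3.11.15 with pandas 2.3.3 and numpy 2.4.6 and were tested on simulated data. Alternatives were the TPM threshold, each quantification alone, posterior mean TPM, other denominators, expected counts, other share and distance thresholds, and leaving out each library. P-values were not computed, as there is 1 group of 2 samples.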

Additional observations from a re-analysis of the deposited data

How the results depend on the processing

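The number of transcripts kept depended most on the level asked for and on the quantification. It was 1395 in 1233 genes, 886 in 804 genes at 2 TPM, and 2580 in 2067 genes with the read-based tables alone. With 0.5 TPM (1880), the alignment-based tables alone (1691), posterior mean TPM (1561) or 1 library left out (1761 to 1763) it stayed within 1.5 times. The median share of 13.2% became 14.6% in the read-based tables, 9.75% from expected counts, 17.3% with coding and decay transcripts alone in the denominator, 10.9% at 0.5 TPM and 16.7% at 2 TPM, and 11.5% to 12.0% with 1 library left out. The percentage of TPM in members, 1.14%, became 1.96% in the read-based tables, 2.50% over coding and decay transcripts alone, 1.49% by expected counts, 1.21% at 0.5 TPM and 1.04% at 2 TPM, and 1.2267% to 1.23054% with 1 library left out. The 118 members highest in their gene became 200 and 269 with the alignment-based or read-based tables alone. The 225 at a share of 25% or more became 484 with the read-based tables alone and 56 at a threshold of 50%. The 27 members 2-fold apart became 149 and 321 with 1 quantification alone. These increases follow from asking for fewer tables to meet the rule. The count of 1387 members with a distant stop was 1371 at 55 bases and 1062 among complete coding regions. The 125 list genes with a member ranged from 93 to 178, and 82 of 96 values for single lists stayed within 1.5 times. No paired analysis was possible because there is a single group of 2 libraries. Depth limits the lowest members, although 1383 of 1395 had 10 or more expected counts in both libraries.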
